A study of Rattus norvegicus with 10 samples.

Results

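The tumour necrosis factor (TNF) superfamily of ligands and receptors was examined in 10 RNA sequencing libraries of rat lung. Members were the rows of the deposited table whose gene name starts with Tnfsf or Tnfrsf, or is Tnf, Lta, Ltb, Ltbr, Fas, Faslg, Cd40, Cd40lg, Cd27, Cd70 or Ngfr. The rule took 39 of 22250 genes, 17 ligands and 22 receptors, and used names only, not measured values. The libraries were labelled XBS 1 to 5 and MOD 1 to 5, and XBS was compared with MOD. The design text describes rats given lipopolysaccharide (LPS) and ovalbumin (OVA) to induce neutrophilic asthma and given Shuangpi Formula (SP); the labels do not say which of XBS and MOD received it. Strain, sex, age, dose and time are likewise not stated, nor is it said whether each library came from its own animal, so that p-values measure the spread between libraries, which may be technical. The labels name lung tissue and, in a second field, the human bronchial line 16HBE; the rat genes of 3 lung cell types were abundant in all 10 libraries, with 5902 to 14375 CPM of the surfactant gene Sftpc, 1093 to 2300 CPM of Ager and 1934 to 10835 CPM of Scgb1a1. CPM is the read count scaled to a common library size after TMM normalization.

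TNF superfamily ligands are mostly trimeric proteins of the cell surface that can be cleaved into soluble forms, and their receptors carry cysteine-rich repeats outside the cell. Receptors with a death domain, such as those encoded by Tnfrsf1a and Fas, can start cell death, while most others recruit TRAF adaptors and activate NF-kB. In lung, TNF is a product of macrophages stimulated by LPS, and lymphotoxins, CD40 ligand, BAFF and APRIL act in the contact between lymphocytes and in the survival of B cells and plasma cells.

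Library totals ran from 11998979 counts in XBS 1 to 15518929 counts in XBS 4, so that 3 counts corresponded to 0.190 to 0.247 CPM after TMM scaling, counting error only. Of the 39 members, 34 passed the filter on low counts, and a gene expressed in 1 group alone could pass through that group. The 5 members that were not tested were all ligands, namely Tnf, Lta, Cd70, Tnfsf4 and Tnfsf11. XBS 2 and XBS 3 stood apart in airway genes, with summed club cell markers of 2646 and 2847 CPM against 8210 to 9408 CPM in the other XBS libraries and 8370 to 12561 CPM in MOD. XBS 5 stood apart in lymphoid and stromal genes, with 322 CPM of summed B cell markers (157 to 245 CPM in the other XBS libraries, 109 to 219 CPM in MOD). In bulk tissue, fewer cells of a type and less RNA per cell cannot be told apart.

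The APRIL, TRAIL and TWEAK genes among ligands, and the lymphotoxin beta receptor and TNF receptor genes among receptors, stood highest. Levels are compared between genes in the authors' FPKM, which is scaled to gene length. Among ligands, Tnfsf13, which encodes the B cell and plasma cell factor APRIL, had 66.4 ± 13.6 FPKM in XBS and 50.1 ± 5.45 FPKM in MOD (SD, n = 5 each). Tnfsf10, which encodes TRAIL, had 48.1 ± 7.54 FPKM in XBS and 52.2 ± 10.7 FPKM in MOD (SD, n = 5 each). Tnfsf12, which encodes TWEAK, had 48.8 ± 1.38 FPKM in XBS and 44.0 ± 3.34 FPKM in MOD (SD, n = 5 each). These 3 genes held 33.9%, 29.2% and 27.0% of the summed ligand FPKM, and their ranges over libraries overlapped. Among receptors, Ltbr, the lymphotoxin beta receptor, stood at 67.3 ± 4.73 FPKM in XBS and 62.9 ± 6.70 FPKM in MOD, beside Tnfrsf1a, TNF receptor 1, at 61.7 ± 2.74 and 55.5 ± 2.83 FPKM (SD, n = 5 each). The ranges of Ltbr and Tnfrsf1a over all 10 libraries, 55.2 to 73.4 FPKM and 51.5 to 63.8 FPKM, overlapped. Tnfrsf1b, TNF receptor 2, came next at 30.4 ± 3.43 FPKM in XBS and 24.2 ± 3.39 FPKM in MOD (SD, n = 5 each), with no library above 35.7 FPKM. The remaining tested receptors averaged between 0.802 and 16.6 FPKM, and the other 9 tested ligands between 0.695 and 5.47 FPKM.

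**Figure D1:**
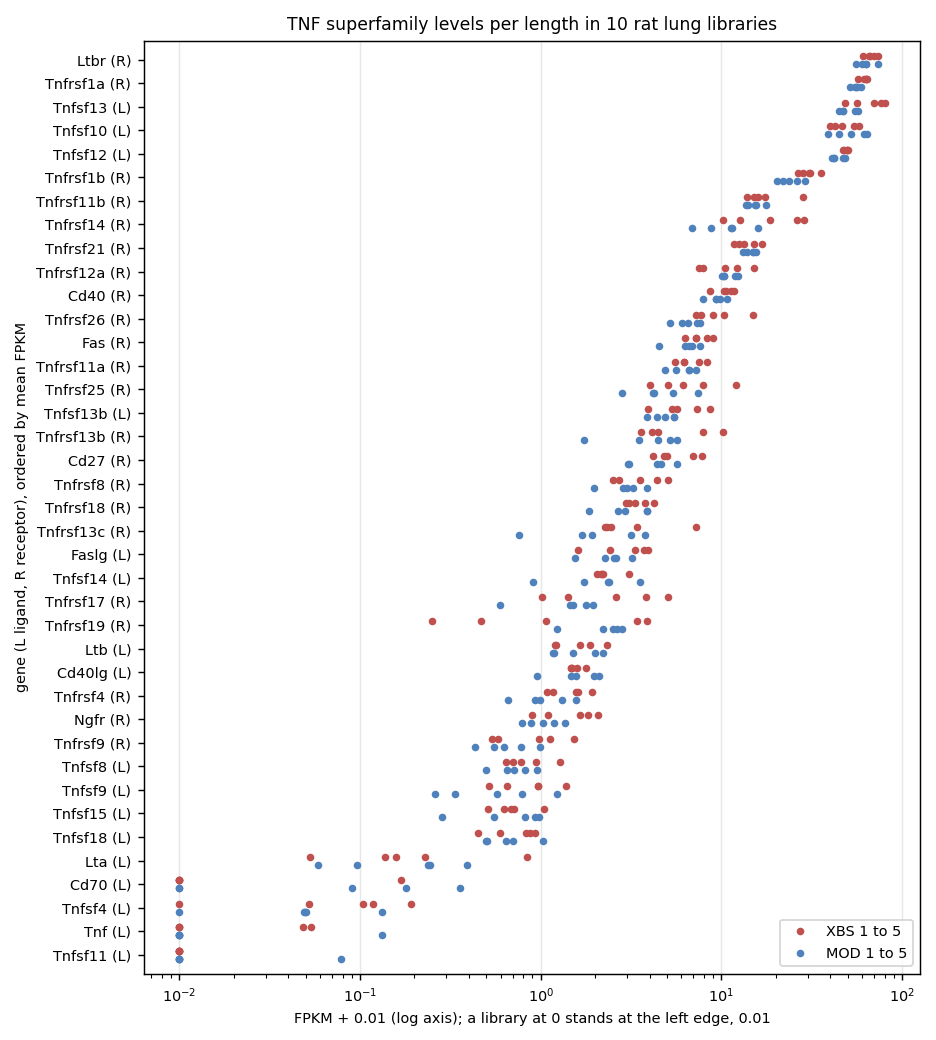
Deposited FPKM of each of the 39 members in every library (log axis, 0.01 added), ordered by the mean, with XBS above MOD within each row and L or R for ligand or receptor. Ltbr leads at 55.2 to 73.4 FPKM, and Tnf and Tnfsf11 stand at 0 in most libraries.

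Ligands and receptors of the same axis stood at unequal levels. Tnfsf13 had 8.52 to 14.4 times the FPKM of Tnfsf13b, which encodes BAFF, in XBS and 8.28 to 14.3 times in MOD. Tnfsf12 had 3.26 to 6.33 times the FPKM of its receptor gene Tnfrsf12a (Fn14) in XBS and 3.52 to 4.54 times in MOD. In the Fas and CD40 systems the receptor was the more abundant transcript: the ratio of Faslg to Fas was 0.220 to 0.461 in XBS and 0.332 to 0.508 in MOD, and that of Cd40lg to Cd40 was 0.127 to 0.182 in XBS and 0.101 to 0.214 in MOD. The ratio of Tnfrsf1b to Tnfrsf1a was 0.423 to 0.625 in XBS and 0.371 to 0.511 in MOD. All 5 ratios overlapped between the groups.

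No member passed the threshold between XBS and MOD. By edgeR's quasi-likelihood test with Benjamini-Hochberg adjustment over 14320 genes, 0 of the 34 rose and 0 fell at an adjusted p of 0.05; among all tested genes 0.0279% rose and 0.0489% fell, 0.0768% together. DESeq2 and limma voom with sample weights also called 0 members, against 2.43% and 0.468% of all genes. DESeq2 gave no adjusted p for Tnfrsf4, Tnfrsf9, Tnfsf9, Tnfsf15 and Tnfsf18, so it could not call these members. At an unadjusted p under 0.05, edgeR gave 5 members, all higher in XBS, which is 14.7% of the 34 and near the 13.2% of all tested genes at that level (7.4% higher and 5.78% lower). None of the 34 had groups that did not overlap, while 2.74% of all tested genes did, and 3 (Tnfrsf17, Tnfrsf14 and Tnfrsf13c) were at least 1.5-fold higher, against 5.51% of all genes in either direction (3.57% higher and 1.94% lower). The direction was less even: 28 of 34 members (82.4%) had a positive log2 fold change, against 51.9% of all genes, and the median was 0.23 for the members and 0.01 for all genes. By role, 19 of 22 receptors and 9 of 12 ligands had a positive log2 fold change, with medians of 0.29 and 0.10. Most marker lists of leukocytes leaned the same way. Positive log2 fold changes were found for 10 of 10 B cell, 11 of 12 T cell and 10 of 11 neutrophil markers, with medians of 0.42, 0.22 and 0.42. Monocyte and interstitial macrophage markers had 8 of 9 (median 0.28). Alveolar macrophage and NK and cytotoxic lists had 6 of 6 each (medians 0.31 and 0.19). Plasma cell and dendritic cell markers were more even, at 4 of 6 and 5 of 8 (medians 0.21 and 0.17). Of alveolar type 1 and endothelial markers, 0 of 12 and 1 of 10 were positive, with medians of -0.24 and -0.29. Other structural lists differed, with 7 of 8 smooth muscle and 5 of 8 fibroblast markers positive (medians 0.30 and 0.17). Alveolar type 2, ciliated and club lists had 2 of 10, 1 of 9 and 2 of 8 (medians -0.03, -0.22 and -0.26). The part of these cell types in the members' direction was not tested. Over the members, the highest of all 10 libraries was an XBS library for 29 of 34, as it was for 59.3% of all tested genes. That library was XBS 1, XBS 2 or XBS 3 for 21 members (40% of all tested genes), XBS 5 for 8 (12.7% of all genes) and XBS 4 for 0 (6.55% of all genes). The lowest library was MOD 4 for 11 members and MOD 1 for 7, but the share of all genes lowest there was not computed. Summed over the 22 receptors, the XBS libraries held 603 to 687 CPM and the MOD libraries 561 to 601 CPM. Summed over the 17 ligands, the ranges were 342 to 467 CPM in XBS, against 343 to 433 CPM over the MOD libraries.

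**Figure D2:**
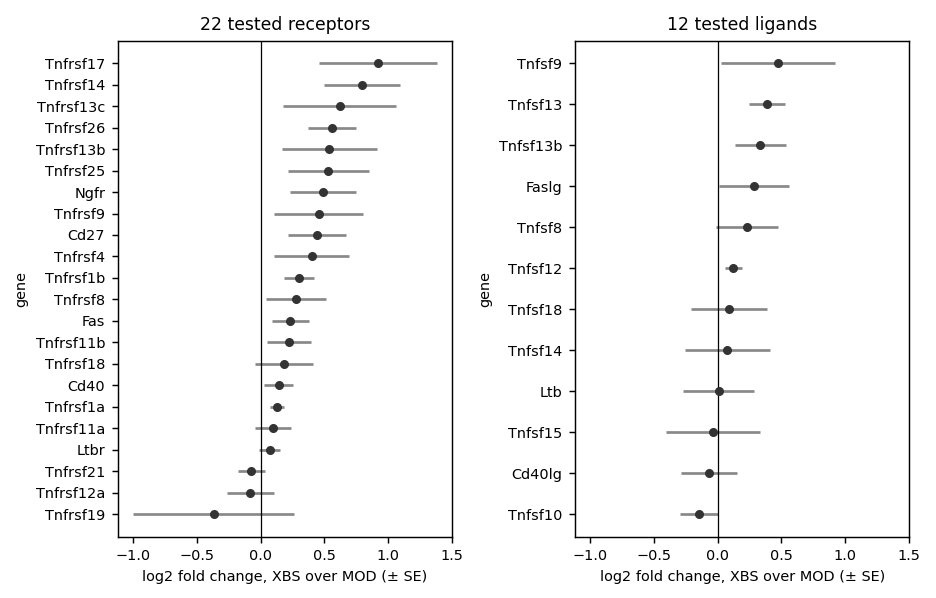
Log2 fold change of XBS over MOD with its standard error for the 22 tested receptors (left) and the 12 tested ligands (right), each ordered by size. Values run from -0.37 for Tnfrsf19 to 0.92 for Tnfrsf17, 28 of 34 lie above 0, and none passed the adjusted threshold.

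Of the ligand genes of the TNF and lymphotoxin locus, Tnf and Lta were near the limit of detection and Ltb was low. Tnf (ENSRNOG00000000837), which encodes the cytokine TNF, had 0, 0, 0, 1 and 1 counts in XBS 1 to 5 and 0, 0, 0, 0 and 3 counts in MOD 1 to 5. Lta, which encodes lymphotoxin alpha, had 4, 3, 1, 3 and 17 counts in XBS 1 to 5 and 8, 5, 1, 2 and 5 counts in MOD 1 to 5. Tnf was thus at or under 3 counts in all 10 libraries and no fold change is given for it. Ltb, which encodes lymphotoxin beta, had 2.71, 1.92, 1.48, 1.39 and 2.15 CPM in XBS 1 to 5, against 2.58, 1.80, 1.39, 1.40 and 2.41 CPM in MOD 1 to 5. The Ltb ranges overlapped almost wholly, with a log2 fold change of 0.01 ± 0.28 (SE) and an adjusted p of 0.993.

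These 3 levels carry a limit of the table itself. In its coordinates, Lta (chromosome 20, 4852496 to 4854677), Tnf (4855829 to 4858447) and Ltb (4861335 to 4863198) lie within the spans of the rows RT1-CE7 and RT1-CE4, class I histocompatibility genes with 81.03 to 112 CPM and 20.3 to 59.2 CPM. The table also holds a second row described as tumor necrosis factor-like (chromosome 20, 5189390 to 5192000) with 0 or 1 count per library, and a second row described as lymphotoxin-beta (chromosome 20, 5184515 to 5186503). That second lymphotoxin row had 13, 32, 17, 9 and 29 counts in XBS 1 to 5 and 11, 22, 12, 11 and 32 counts in MOD 1 to 5. Adding it to Ltb, a choice made after seeing the data, gave a log2 fold change of 0.09 ± 0.29 (SE, adjusted p = 0.913 by edgeR). How reads matching several places were counted is not stated, so the part of these rows in the low counts was not tested. Tnfsf11, which encodes the osteoclast factor RANKL, had 1 count in MOD 4 and 0 in the other 9 libraries, and its second row on chromosome 15 had 1 count in XBS 4 and 0 elsewhere. Of the other untested ligands, Cd70 had at most 2 counts in an XBS library and at most 4 in a MOD library, and Tnfsf4, which encodes OX40 ligand, at most 5 and at most 3.

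Promoter windows show which members carry NF-kB or clock letters next to their start. The 250 bases before the RefSeq start (build GRCr8) were available for 29 of the 39 members and were searched on both strands for the NF-kB consensus, for the E-box CACGTG bound by CLOCK and its partner, and for the RORE, the element of REV-ERB and ROR receptors. The NF-kB consensus was found in 4 of 29 members (13.8%), against 3.54% of 33469 promoters, and the E-box in 2 of 29 (6.9%), against 5.59%. The RORE was found in 0 of 29 and in 0.669% of all promoters. The 4 NF-kB matches and the 2 E-box matches are printed with up to 25 bases on either side, on the strand of the gene, with the match in capitals; no NF-kB match overlapped an E-box.
Lta, NF-kB, chr20:3623409-3623468, plus strand: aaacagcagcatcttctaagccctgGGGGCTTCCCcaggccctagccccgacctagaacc
Ltb, NF-kB, chr20:3634055-3634104, minus strand: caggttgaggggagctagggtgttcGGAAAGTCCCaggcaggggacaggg
Tnfsf14, NF-kB, chr9:2160232-2160291, minus strand: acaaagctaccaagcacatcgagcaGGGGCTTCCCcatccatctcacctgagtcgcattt
Tnfrsf8, NF-kB, chr5:162451753-162451812, minus strand: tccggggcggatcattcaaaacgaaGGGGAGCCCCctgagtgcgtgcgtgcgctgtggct
Ltbr, E-box, chr4:159801617-159801672, minus strand: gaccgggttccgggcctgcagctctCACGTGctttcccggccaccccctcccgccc
Tnfrsf4, E-box, chr5:171888884-171888927, plus strand: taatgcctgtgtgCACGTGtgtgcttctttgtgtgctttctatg
The match in Ltb began 25 bases before the start and that in Lta 93 bases before it. A match of letters is a description and does not show binding. The tested members among these 6 had log2 fold changes of 0.01 ± 0.28 for Ltb, 0.08 ± 0.33 for Tnfsf14, 0.28 ± 0.23 for Tnfrsf8, 0.07 ± 0.08 for Ltbr and 0.40 ± 0.29 for Tnfrsf4 (SE), and none passed.

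Among ligands of B cells and plasma cells, the APRIL gene had the smallest p. Tnfsf13 (ENSRNOG00000014171) had 137, 131, 125, 95.6 and 81.04 CPM in XBS 1 to 5, against 97.3, 81.9, 77.5, 81.7 and 97.3 CPM in MOD 1 to 5. XBS 1, XBS 2 and XBS 3 lay above every MOD library, while XBS 4 and XBS 5 lay within the MOD range. The log2 fold change was 0.38 ± 0.14 (SE, 1.31-fold, adjusted p = 0.302 by edgeR), and it was 0.26 without XBS 2 and XBS 3. Tnfsf13 and Tnfsf12 lie 827 bases apart on the same strand of chromosome 10, and reads that run from one into the other cannot be separated here. Tnfsf12 had 71.4, 76.3, 78.9, 71.7 and 73.9 CPM in XBS 1 to 5, against 64.2, 73.2, 65.0, 75.2 and 64.1 CPM in MOD 1 to 5 (log2 fold change 0.12 ± 0.07 SE, adjusted p = 0.448 by edgeR). All 5 XBS values of Tnfsf12 were above the MOD median, and the groups overlapped. Tnfsf13b had 15.5, 18.4, 11.8, 8.29 and 11.9 CPM in XBS 1 to 5, against 10.4, 9.66, 11.7, 11.9 and 8.50 CPM in MOD 1 to 5 (log2 fold change 0.33 ± 0.20 SE, adjusted p = 0.476 by edgeR; 0.18 without XBS 2). XBS 2 was the highest and XBS 4 the lowest of all 10 libraries for this gene.

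The death ligands did not pass. Tnfsf10 had 162, 219, 185, 150 and 202 CPM in XBS 1 to 5, against 171, 248, 201, 240 and 153 CPM in MOD 1 to 5. It was one of 6 members with a negative log2 fold change, -0.14 ± 0.15 (SE, adjusted p = 0.691 by edgeR), and each group held both high and low libraries. Faslg, which encodes the Fas ligand of cytotoxic lymphocytes, had 5.92, 6.29, 5.59, 3.86 and 2.51 CPM in XBS 1 to 5, against 3.66, 4.18, 5.19, 4.25 and 2.55 CPM in MOD 1 to 5 (log2 fold change 0.28 ± 0.28 SE, adjusted p = 0.668 by edgeR; 0.16 without MOD 5, 0.17 without XBS 2 and 0.45 without XBS 5). XBS 1, XBS 2 and XBS 3 stood above all MOD libraries and XBS 5 below them. The summed markers of NK and cytotoxic cells (8 of 8 found; Gzmb was at 0 in 2 libraries and Klrb1 in 4) showed a like split, with 163, 178, 197, 111 and 96.0 CPM in XBS 1 to 5, against 110 to 147 CPM over the MOD libraries; their part in the Faslg values was not tested.

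The costimulatory ligands were low. Cd40lg, the CD40 ligand of activated helper T cells, had 3.78, 4.52, 3.91, 3.99 and 3.66 CPM in XBS 1 to 5, against 3.73, 5.12, 5.41, 2.46 and 4.11 CPM in MOD 1 to 5. Its XBS values all lay inside the MOD range, with a log2 fold change of -0.07 ± 0.22 (SE, adjusted p = 0.913 by edgeR). Tnfsf8, Tnfsf9, Tnfsf14, Tnfsf15 and Tnfsf18, which encode CD30 ligand, 4-1BB ligand, LIGHT, TL1A and GITR ligand, had means of 0.735 to 3.41 CPM in XBS, against means of 0.749 to 2.90 CPM in MOD, with log2 fold changes from -0.03 to 0.47. None of the 5 passed.

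Both TNF receptors were among the 5 members of smallest p, and both differences were small. Tnfrsf1a (ENSRNOG00000031312, chromosome 4, 157864969 to 157877633) had 134, 133, 126, 128 and 132 CPM in XBS 1 to 5, against 116, 122, 127, 121 and 113 CPM in MOD 1 to 5. The groups overlapped only through XBS 3 and MOD 3, and the gene varied little within them (SD 3.45 CPM in XBS and 5.48 CPM in MOD). The fitted log2 fold change was 0.13 ± 0.05 (SE, 1.09-fold, adjusted p = 0.360 by edgeR). Tnfrsf1b (ENSRNOG00000016575, chromosome 5, 163136390 to 163167299), the TNF receptor of leukocytes and endothelium, had 88.0, 76.3, 107, 86.2 and 79.5 CPM in XBS 1 to 5, against 58.5, 84.8, 68.6, 76.9 and 65.0 CPM in MOD 1 to 5. All 5 XBS libraries were above the MOD median, and 3 were above the highest MOD library, MOD 2. Its log2 fold change was 0.30 ± 0.12 (SE, 1.23-fold, adjusted p = 0.316 by edgeR). Summed markers of monocytes and interstitial macrophages (9 of 10 found, none at 0) lay between 13127 and 33596 CPM in XBS. The MOD libraries held 18447 to 26407 CPM. XBS 3 was highest in both the sum and Tnfrsf1b. XBS 5 had the lowest sum of all 10 libraries but 79.5 CPM of Tnfrsf1b, and MOD 5 the highest sum in MOD but 65.0 CPM. The sum was mostly Lyz2, at 12464 to 32843 CPM in XBS, against 17978 to 25820 CPM over the MOD libraries. Of the 9 markers, 8 had a positive log2 fold change. At an unadjusted p under 0.05 by edgeR there were 3 (33.3%), all higher in XBS, against 13.2% of all tested genes (7.4% higher). C1qb alone did not overlap between groups, and only narrowly, while 2.74% of all tested genes did not overlap. It had 55.6 to 82.6 CPM in XBS, against 39.8 to 55.5 CPM over the MOD libraries. The part of these cells in Tnfrsf1b was not tested.

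Tnfrsf14 and Tnfrsf26 had larger differences than the other 3 members with an unadjusted p under 0.05. Tnfrsf14 (ENSRNOG00000013820, chromosome 5, 172328262 to 172335892) encodes HVEM, the receptor of LIGHT and of the inhibitory receptor BTLA. It had 57.8, 53.4, 26.9, 20.6 and 37.1 CPM in XBS 1 to 5, against 32.5, 23.9, 23.3, 14.4 and 18.5 CPM in MOD 1 to 5. XBS 1, XBS 2 and XBS 5 lay above every MOD library, and XBS 4 lay below MOD 1, MOD 2 and MOD 3. For this gene the log2 fold change was 0.80 ± 0.30 (SE, 1.74-fold, adjusted p = 0.311 by edgeR) and ran from 0.62 to 0.97 with single libraries left out. Tnfrsf26 (ENSRNOG00000043486, chromosome 1, 216808632 to 216828651) had 24.9, 35.8, 18.3, 18.5 and 21.3 CPM in XBS 1 to 5, against 18.5, 16.2, 17.9, 12.9 and 15.0 CPM in MOD 1 to 5. All 5 XBS libraries stood above the MOD median, and XBS 3 and XBS 4 fell just below the highest MOD library, MOD 1. Its log2 fold change was 0.56 ± 0.19 (SE, 1.47-fold), with the smallest adjusted p of the family (0.265 by edgeR, 0.125 by DESeq2), and was 0.36 without XBS 2. Summed neutrophil markers (11 of 12 found, none at 0) were highest in XBS 2, as was Tnfrsf26, while Tnfrsf14 was highest in XBS 1. The sum was 1077 CPM in XBS 2, against 476 to 702 CPM in the other XBS libraries and 433 to 661 CPM in MOD. S100a8 and S100a9 held 148 and 377 CPM of it in XBS 2. XBS 3 had the next highest sum, 702 CPM, but the lowest XBS value of Tnfrsf26. Of the 11 markers, 10 had a positive log2 fold change and 1 a negative one (-0.91). The part of these markers in the 2 receptors was not tested.

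**Figure D3:**
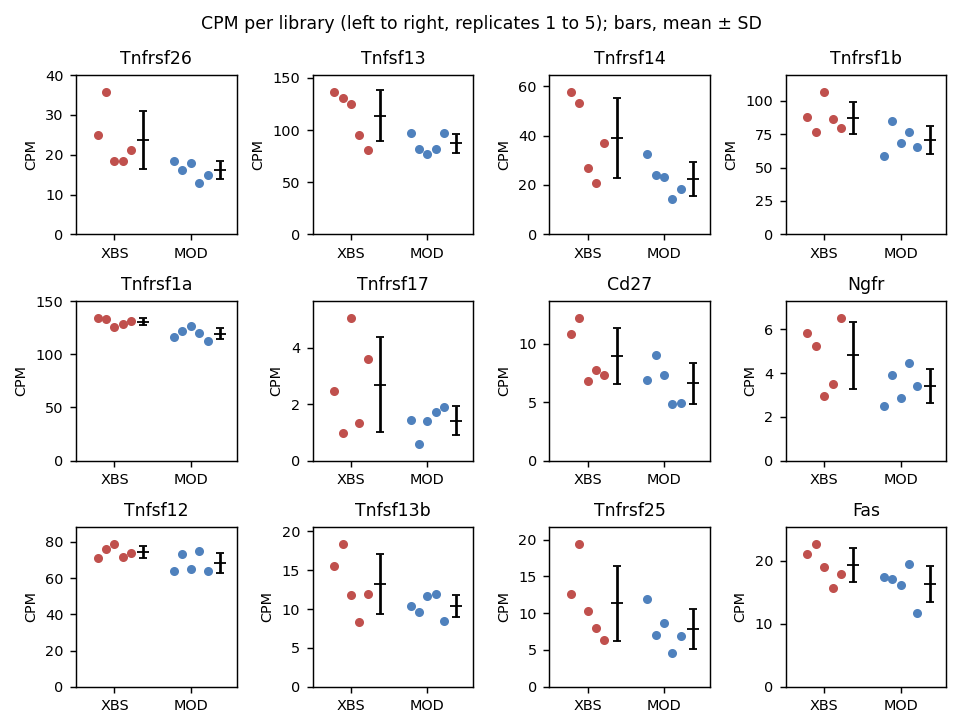
CPM in each library (points, replicates 1 to 5 from left to right, XBS left of MOD) with mean and SD (bars) for the 12 tested members of smallest p. Tnfrsf14 reaches 57.8 CPM in XBS 1 and 20.6 CPM in XBS 4, against 14.4 to 32.5 CPM in MOD, and in every panel the groups overlap.

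The other death receptors did not pass either. Fas had 21.0, 22.7, 19.1, 15.7 and 17.9 CPM in XBS 1 to 5, against 17.3, 17.1, 16.1, 19.5 and 11.8 CPM in MOD 1 to 5 (log2 fold change 0.23 ± 0.15 SE, adjusted p = 0.490 by edgeR; 0.14 without MOD 5). XBS 1 and XBS 2 were the 2 highest libraries. Tnfrsf25, the death receptor DR3 of T cells, had 12.7, 19.4, 10.3, 8.03 and 6.38 CPM in XBS 1 to 5, against 11.97, 6.99, 8.71, 4.65 and 6.94 CPM in MOD 1 to 5 (log2 fold change 0.53 ± 0.32 SE, adjusted p = 0.477 by edgeR; 0.25 without XBS 2). XBS 2 carried the highest value of Tnfrsf25 and XBS 5 lay below 4 of 5 MOD libraries. Tnfrsf21, the death receptor DR6, averaged 60.3 ± 10.03 CPM in XBS and 63.5 ± 4.30 CPM in MOD (SD, n = 5 each), with a log2 fold change of -0.07 ± 0.11 (SE).

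Receptors of T cells and of nerve growth factor leaned the same way without passing. Cd27, a costimulatory receptor of T and memory B cells, had 10.8, 12.2, 6.80, 7.72 and 7.32 CPM in XBS 1 to 5, against 6.88, 9.01, 7.32, 4.85 and 4.96 CPM in MOD 1 to 5 (log2 fold change 0.44 ± 0.23 SE, adjusted p = 0.427 by edgeR). XBS 1 and XBS 2 were again the highest. Ngfr, the p75 neurotrophin receptor, had 5.84, 5.26, 2.96, 3.48 and 6.53 CPM in XBS 1 to 5, against 2.51, 3.89, 2.85, 4.45 and 3.40 CPM in MOD 1 to 5 (log2 fold change 0.49 ± 0.26 SE, adjusted p = 0.437 by edgeR). XBS 1, XBS 2 and XBS 5 exceeded all MOD libraries, while XBS 3 and XBS 4 did not. Tnfrsf4, Tnfrsf8, Tnfrsf9 and Tnfrsf18, which encode OX40, CD30, 4-1BB and GITR, had log2 fold changes of 0.40, 0.28, 0.46 and 0.18, none of which passed. Summed T cell markers (12 of 12 found, none at 0) were 242 to 300 CPM in XBS. The MOD libraries held 188 to 253 CPM. Cd4 was the largest part of the T cell sum in every library, with 51.1 to 123 CPM. Cd8a reached 42.0 to 52.0 CPM in XBS 1, XBS 2 and XBS 3, while XBS 4 and XBS 5 lay within the MOD range. Cd3d had 4.44 to 10.2 CPM in XBS, against 4.53 to 9.58 CPM over the MOD libraries. Cd3g had 9.53 to 19.9 CPM in XBS, against 10.6 to 14.9 CPM over the MOD libraries. Of the 12 markers, 11 had a positive log2 fold change. The part of these markers in the receptors was not tested.

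Receptors of BAFF and APRIL were low and uneven among libraries. Tnfrsf17, which encodes the plasma cell receptor BCMA, had 2.47, 0.962, 5.05, 1.33 and 3.59 CPM in XBS 1 to 5, against 1.43, 0.577, 1.39, 1.73 and 1.91 CPM in MOD 1 to 5. It had the largest fold change of the family in size, a log2 value of 0.92 ± 0.46 (SE, 1.90-fold, adjusted p = 0.419 by edgeR), which was 0.56 without XBS 3. Tnfrsf13b, which encodes TACI, had 3.29, 2.67, 6.13, 3.04 and 7.46 CPM in XBS 1 to 5, against 1.29, 3.39, 4.24, 2.66 and 3.97 CPM in MOD 1 to 5 (log2 fold change 0.54 ± 0.37 SE, adjusted p = 0.537 by edgeR; 0.34 without MOD 1 and 0.28 without XBS 5). XBS 3 and XBS 5 were the highest for both genes, and XBS 1 also lay above MOD for Tnfrsf17. Tnfrsf13c, which encodes the BAFF receptor of B cells, had 4.19, 5.85, 4.04, 3.99 and 12.3 CPM in XBS 1 to 5, against 6.52, 5.55, 2.93, 1.33 and 3.40 CPM in MOD 1 to 5 (log2 fold change 0.62 ± 0.44 SE, adjusted p = 0.547 by edgeR). XBS 5 alone lay above the MOD range; without it the log2 fold change was 0.20, without MOD 4 it was 0.40, and without MOD 4 and XBS 5 it turned to -0.03. Summed B cell markers (10 of 10 found, none at 0) were 169, 245, 157, 158 and 322 CPM in XBS 1 to 5, against 109 to 219 CPM over the MOD libraries, with XBS 5 again highest and MOD 4 lowest. Summed plasma cell markers (6 of 6 found, none at 0) were 772 to 1215 CPM in XBS, against 743 to 1225 CPM over the MOD libraries. Jchain, Sdc1 and Xbp1 carried most of that sum. Mzb1, a low marker of the same list, had 22.2, 17.2, 43.4, 12.3 and 48.6 CPM in XBS 1 to 5, against 8.53 to 26.0 CPM over the MOD libraries, and Irf4 had 14.4 to 26.8 CPM in XBS, against 8.31 to 24.2 CPM over the MOD libraries. Of the 6 plasma cell markers, 2 (33.3%) had an unadjusted p under 0.05 by edgeR, both higher in XBS, against 13.2% of all tested genes (7.4% higher). Another 2 had a negative log2 fold change, down to -0.08. Sdc1 had 269 to 369 CPM in XBS, lowest in XBS 5, against 316 to 375 CPM over the MOD libraries. Xbp1 had 214 to 258 CPM in XBS, against 224 to 288 CPM over the MOD libraries. The part of either list in these receptors was not tested.

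Receptors of stromal, epithelial and antigen-presenting cells did not pass. Cd40, the receptor of B cells and dendritic cells for CD40 ligand, had 15.9, 14.4, 14.7, 11.7 and 15.2 CPM in XBS 1 to 5, against 14.6, 13.0, 13.5, 13.0 and 11.1 CPM in MOD 1 to 5 (log2 fold change 0.14 ± 0.12 SE, adjusted p = 0.602 by edgeR). Ltbr had 144, 151, 141, 135 and 123 CPM in XBS 1 to 5, against 151, 116, 131, 126 and 133 CPM in MOD 1 to 5 (log2 fold change 0.07 ± 0.08 SE, adjusted p = 0.713 by edgeR). Both genes varied little and overlapped between the groups. Tnfrsf11a, which encodes RANK, averaged 19.1 ± 3.10 CPM in XBS and 17.9 ± 2.74 CPM in MOD (SD, n = 5 each; log2 fold change 0.10 ± 0.14 SE, adjusted p = 0.794 by edgeR). Tnfrsf11b, which encodes the soluble decoy receptor osteoprotegerin, had 39.5, 49.8, 45.4, 45.2 and 79.5 CPM in XBS 1 to 5, against 39.3, 52.0, 44.8, 44.8 and 41.7 CPM in MOD 1 to 5. XBS 5 stood alone, and the log2 fold change of 0.22 ± 0.17 (SE, adjusted p = 0.584 by edgeR) was 0.02 without it. Summed fibroblast markers (9 of 10 found; Mfap4 was at 0 in 9 libraries) were also highest in XBS 5, at 9757 CPM, against 4653 to 6028 CPM in the other XBS libraries and 3738 to 6538 CPM in MOD; their part was not tested.

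Tnfrsf19 split the XBS group, and it was singled out after its values were seen. The gene encodes TROY, a receptor of epithelial progenitors. It had 3.94, 1.70, 0.943, 12.7 and 14.2 CPM in XBS 1 to 5, against 8.31, 4.69, 9.95, 10.7 and 9.63 CPM in MOD 1 to 5. XBS 1, XBS 2 and XBS 3 lay below every MOD library and XBS 4 and XBS 5 above every one. The log2 fold change was -0.37 ± 0.63 (SE, adjusted p = 0.826 by edgeR) and turned to 0.25 without XBS 2 and XBS 3. Summed ciliated cell markers (9 of 10 found, none at 0) followed the same order of groups of libraries. They had 642, 378, 380, 1102 and 953 CPM in XBS 1 to 5, against 720 to 885 CPM over the MOD libraries. Summed club cell markers had 8210, 2646, 2847, 9408 and 9025 CPM in XBS 1 to 5, against 8370 to 12561 CPM over the MOD libraries. In the club sum, XBS 4 and XBS 5 thus lay within the MOD range. The part of either list in Tnfrsf19 was not tested. Tnfrsf12a, the TWEAK receptor Fn14 of injured epithelium and stroma, averaged 10.1 ± 2.88 CPM in XBS and 10.7 ± 0.995 CPM in MOD (SD, n = 5 each; log2 fold change -0.08 ± 0.19 SE).

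**Figure D4:**
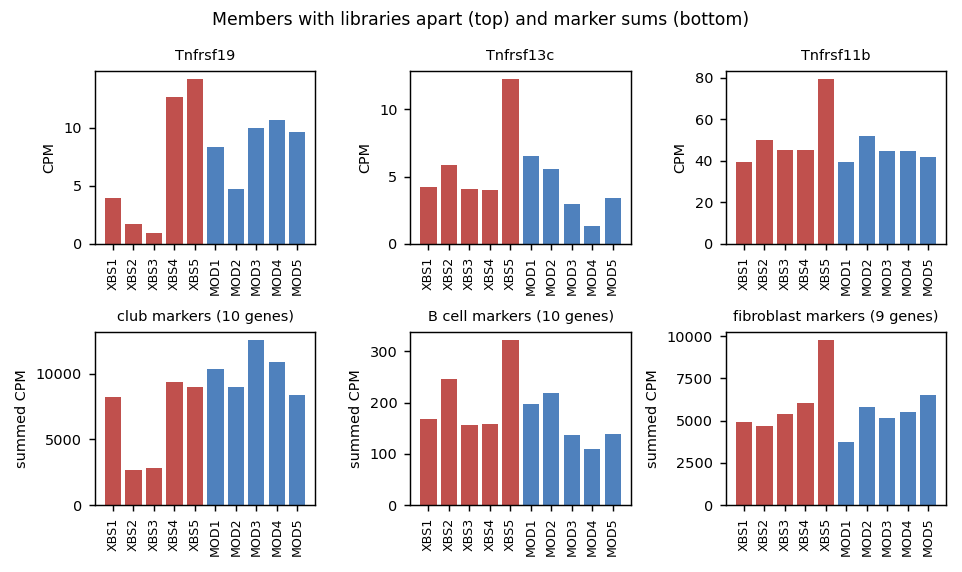
CPM of Tnfrsf19, Tnfrsf13c and Tnfrsf11b (top) and summed CPM of club, B cell and fibroblast markers (bottom) in each library, XBS left of MOD. Tnfrsf19 is at 0.943 to 3.94 CPM in XBS 1 to 3 and at 12.7 and 14.2 CPM in XBS 4 and 5, and Tnfrsf13c (12.3 CPM) and Tnfrsf11b (79.5 CPM) are highest in XBS 5.

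Downstream of the receptors, the inhibitor gene Nfkbia fell in XBS. It encodes IkB-alpha, which holds NF-kB in the cytoplasm and is itself induced by NF-kB. It had 157, 190, 173, 156 and 211 CPM in XBS 1 to 5, against 270, 328, 335, 392 and 259 CPM in MOD 1 to 5, and every XBS library lay below every MOD library. The log2 fold change was -0.84 ± 0.13 (SE, adjusted p = 0.0445 by edgeR); with 1 library left out the call held only without MOD 1, MOD 5 or XBS 5 (adjusted p 0.0347 to 0.167 over the 10 fits). The call was also lost by edgeR with RLE scaling (log2 fold change -0.84, adjusted p = 0.0504) and with the replicate block (-0.83, adjusted p = 0.158). It was lost without XBS 2 and XBS 3 (-0.86, adjusted p = 0.142 by edgeR) and without MOD 4 and XBS 5 (-0.82, adjusted p = 0.0836 by edgeR). Nfkbia passed by DESeq2 (adjusted p = 8.38e-07) and limma voom (adjusted p = 0.0202). By edgeR it passed with upper quartile scaling (adjusted p = 0.0455), without the filter (0.0347) and with the filter of 1 CPM in 5 libraries (0.0468). Its log2 fold change ran from -0.92 to -0.75 over all settings. Of the 40 listed receptor adaptors, kinases, ubiquitin enzymes and NF-kB genes, all tested, 0 rose, 1 fell and 39 did not pass. At an unadjusted p under 0.05 there were 9 (22.5%), 6 higher and 3 lower, against 13.2% of all tested genes, 7.4% higher and 5.78% lower. The median log2 fold change was 0.06, and 2 of 40, Nfkbia among them, had groups that did not overlap, against 2.74% of all genes. Traf1, a TRAF adaptor induced by NF-kB, averaged 18.4 ± 2.83 CPM in XBS and 14.2 ± 1.58 CPM in MOD (SD, n = 5 each; adjusted p = 0.283 by edgeR). Cflar, which encodes the caspase-8 inhibitor c-FLIP, averaged 50.0 ± 7.58 CPM in XBS and 63.6 ± 9.20 CPM in MOD (SD, n = 5 each; adjusted p = 0.297 by edgeR).

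No gene of the list of TNF targets passed by edgeR. Of 27 listed target genes, 26 were found and 23 tested: 0 rose, 0 fell and 23 did not pass, with 10 (43.5%) at an unadjusted p under 0.05, 9 higher and 1 lower, against 13.2% of all tested genes (7.4% higher and 5.78% lower), and a median log2 fold change of 0.24. By DESeq2, 3 passed (Nfkbie, Il1b and Cxcl10), as did 2.43% of all genes, and 0 by limma voom. Nfkbia and Tnfaip3, which TNF also induces and which were both lower in XBS, are counted with the mediators. So is Traf1, likewise induced by NF-kB, which was higher in XBS (log2 fold change 0.37 ± 0.13 SE, adjusted p = 0.283 by edgeR). Tnfaip3, which encodes the NF-kB inhibitor A20, averaged 27.1 ± 3.88 CPM in XBS and 35.8 ± 9.88 CPM in MOD (SD, n = 5 each; log2 fold change -0.40 ± 0.18 SE, adjusted p = 0.372 by edgeR). Nfkbie, which encodes another IkB protein, had 33.0, 34.2, 34.2, 29.0 and 31.1 CPM in XBS 1 to 5, against 25.3, 28.5, 23.1, 25.9 and 25.8 CPM in MOD 1 to 5, with no overlap (log2 fold change 0.33 ± 0.08 SE, adjusted p = 0.154 by edgeR). Il1b, which encodes interleukin-1 beta, averaged 51.5 ± 12.1 CPM in XBS and 31.4 ± 6.11 CPM in MOD (SD, n = 5 each; adjusted p = 0.162 by edgeR). Cxcl10, a chemokine gene that interferons also induce, averaged 5.86 ± 2.28 CPM in XBS and 2.60 ± 0.753 CPM in MOD, and Tnfaip2 averaged 55.9 ± 6.67 CPM in XBS and 43.2 ± 6.35 CPM in MOD (SD, n = 5 each; adjusted p = 0.187 and 0.233 by edgeR). The 2 IkB genes named here thus differed in direction, Nfkbia being lower and Nfkbie higher in XBS. Tnfaip3 was lower, like Nfkbia. Among the 3 genes, only Nfkbia passed by edgeR.

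**Figure D5:**
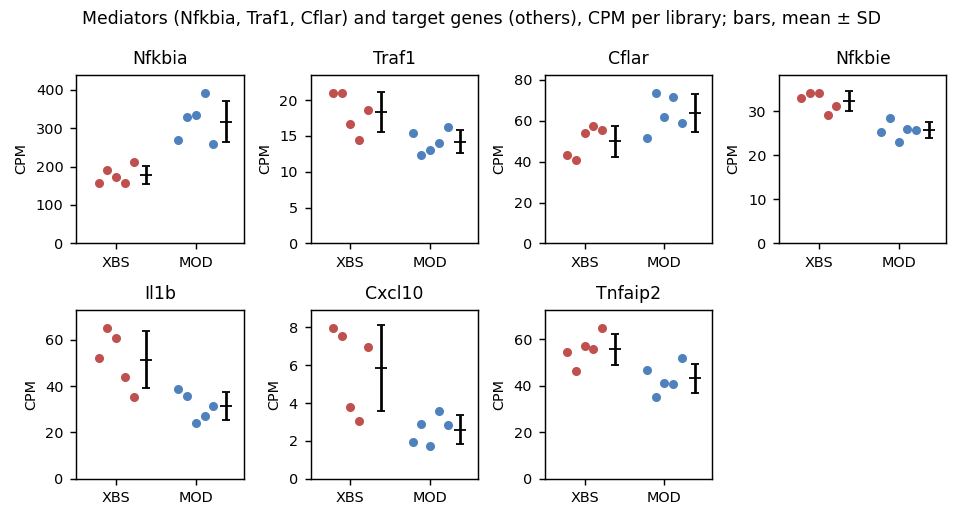
CPM in each library (points, XBS left of MOD) with mean and SD (bars) for the mediators Nfkbia, Traf1 and Cflar and the target genes Nfkbie, Il1b, Cxcl10 and Tnfaip2. Nfkbia is at 156 to 211 CPM in XBS, against 259 to 392 CPM over the MOD libraries, and Nfkbie at 29.0 to 34.2 CPM in XBS, against 23.1 to 28.5 CPM over the MOD libraries.

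Genes that cleave TNF family proteins from the membrane did not pass. Of 10 listed, 9 were tested, 0 rose, 0 fell and 9 did not pass, with 1 (11.1%) at an unadjusted p under 0.05, against 13.2% of all genes, and a median log2 fold change of 0.00. Adam17, the main TNF-cleaving protease, averaged 229 ± 25.3 CPM in XBS and 230 ± 7.64 CPM in MOD (SD, n = 5 each; log2 fold change -0.01 ± 0.08 SE). Its inhibitor gene Timp3 had 391, 340, 530, 495 and 605 CPM in XBS 1 to 5, against 615, 641, 594, 635 and 617 CPM in MOD 1 to 5. Of these, 4 XBS libraries lay below every MOD library and XBS 5 within the MOD range (log2 fold change -0.39 ± 0.14 SE, adjusted p = 0.282 by edgeR). Rhbdf2, an iRhom cofactor of ADAM17, and the intramembrane proteases Sppl2a and Sppl2b had log2 fold changes of 0.21, 0.28 and 0.21.

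Genes of lymphoid tissue that lymphotoxin beta receptor signalling is known to sustain did not pass. Of 8 listed, 7 were tested, with 0 higher and 0 lower past the threshold; all 7 had a positive log2 fold change, against 51.9% of all tested genes, with a median of 0.68, and 1 (14.3%) had an unadjusted p under 0.05, against 13.2% of all tested genes. That 1 gene was Il7, a lymphocyte survival cytokine, at 5.77 ± 1.33 CPM in XBS and 3.86 ± 0.639 CPM in MOD (SD, n = 5 each; adjusted p = 0.287 by edgeR). Ccl19, a chemokine gene of lymph node stroma, had 1.97, 2.67, 1.28, 4.81 and 38.1 CPM in XBS 1 to 5, against 1.79, 5.84, 3.07, 2.39 and 5.81 CPM in MOD 1 to 5. Ccl21, another such chemokine gene, averaged 137 ± 33.7 CPM in XBS and 114 ± 25.3 CPM in MOD (SD, n = 5 each), and XBS 5 was the highest library for both. Glycam1 had 0, 0, 0, 2.15 and 64.5 CPM in XBS 1 to 5, against 0.0665 to 6.13 CPM over the MOD libraries. Cxcl13 had 26.8 CPM in XBS 5, 1.78 to 5.50 CPM in the other XBS libraries and 0.645 to 12.1 CPM in MOD. Chst4 had 4.15 CPM in XBS 2, 0.143 to 1.73 CPM in the other XBS libraries and 0.567 to 1.79 CPM in MOD. The positive direction of Ccl19, Glycam1, Cxcl13 and Chst4 thus rested largely on 1 XBS library each, and fits without it are not given. Summed thymus and lymph node markers, which include Ccl21 and Cxcl13 of this list (13 of 13 found, some of them at 0 in some libraries), reached 330 CPM in XBS 5 and 161 to 190 CPM in the other XBS libraries, against 133 to 193 CPM over the MOD libraries. Tnfsf13b, also a member of the family, is counted in this list of 8.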

How the data were processed

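Messenger RNA from rat lung was sequenced in 5 XBS and 5 MOD libraries, grouped by title. Per the file headers, each gene of the authors' table has, for every library, a deposited read count and a deposited FPKM. FPKM matched counts divided by length and total to within 8.82e-08 and served only to compare levels between genes. Aligner, counter, strand setting, multiple-match handling and rat build were not stated. Members and lists were chosen with earlier results of these data known.

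The low-count filter was edgeR's filterByExpr (at least 10 counts, total of at least 15), which kept 14320 genes. After TMM scaling, the robust quasi-likelihood test of edgeR 4.0.16 (glmQLFit, glmQLFTest; R 4.3.3) compared XBS with MOD; p was adjusted by Benjamini-Hochberg over those genes, threshold 0.05. SE is the log2 fold change over the square root of F. Promoters were RefSeq's (GRCr8). Alternatives were DESeq2 1.42.0, limma 3.58.1 voom, other scalings and filters, a replicate block and left-out libraries. Named were the 12 members of smallest p, core ligands and receptors, and the 4 of smallest p of each list. Outside that rule are Tnfrsf19, Tnfsf14, Adam17, Tnfaip3, Relt, Glycam1, Cxcl13 and Chst4. Tnfrsf10b, in that rule, was not analysed here, and 1 mediator it named is not reported here.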

Additional observations from a re-analysis of the deposited data

Results flagged for a closer look

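In 3 of the 68 groups of 5 libraries (34 members, XBS and MOD each), 1 library lay apart from the other 4 by more than Dixon's criterion allows, and chance flags about 1 group in 20. Tnfrsf13c, the BAFF receptor gene, was at 12.3 CPM in XBS 5, against 3.99 to 5.85 CPM in the other XBS libraries. Tnfrsf11b, the osteoprotegerin gene, was at 79.5 CPM in XBS 5, against 39.5 to 49.8 CPM in the other XBS libraries. Tnfsf14, the LIGHT gene, was at 2.29 CPM in XBS 3, against 1.43 to 1.56 CPM in the other XBS libraries, and MOD libraries reached 2.62 CPM.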

How the results depend on the processing

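No member passed under any of 19 other settings or with the copy rows summed, which was chosen after seeing the data; the smallest adjusted p of the 22 named members was 0.125, for Tnfrsf26 by DESeq2. Of 419 values of these members under other settings, 409 kept their direction and 10, in 3 members, did not. Ltb was -0.0047 without the filter, -0.13 without MOD 4 and XBS 5, and -0.14 to 0.14 with single libraries left out. Cd40lg was -0.21 to 0.0401 with single libraries left out. Tnfrsf13c was -0.028 without MOD 4 and XBS 5. The small log2 fold changes of Ltbr, Cd40, Tnfsf10 and Tnfrsf11a also moved by over 1.5 times with single libraries left out, without a change of sign. The count of mediators, 1 (Nfkbia; log2 fold change -0.83, adjusted p = 0.158 by edgeR with the replicate block), became 0 with RLE scaling, with the replicate block, without XBS 2 and XBS 3 and without MOD 4 and XBS 5, and was 0 to 1 with single libraries left out. The count of target genes became 3 by DESeq2. Over all genes, 11 passed by edgeR, 348 by DESeq2, 67 by limma voom, 1 with the replicate block, 3 without XBS 2 and XBS 3, 0 without MOD 4 and XBS 5 (1340 at an unadjusted p under 0.05), and 4 to 15 with single libraries left out; the cause was not tested. Whether the replicate numbers pair the libraries is not stated and was not settled here. Same-numbered libraries had correlations of -0.125 to 0.329, and 1 of 5 MOD libraries correlated best with its own number. The members' median log2 fold change was 0.15 to 0.30 over all settings, and that of all genes at most 0.02. Ligands under about 1 CPM were limited by depth.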

Other observations

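Relatives of the family whose names lie outside the rule were read after their values were seen. Relt, a TNF receptor superfamily gene of lymphoid tissue, had 27.1, 24.1, 21.4, 12.6 and 19.6 CPM in XBS 1 to 5, against 11.8, 12.4, 11.3, 11.2 and 10.7 CPM in MOD 1 to 5. Every XBS library lay above every MOD library, as it or the reverse did for 2.74% of all tested genes. The log2 fold change was 0.87 ± 0.18 (SE, adjusted p = 0.0912 by edgeR), so Relt did not pass; it passed by DESeq2 (adjusted p = 0.00132) and by edgeR without XBS 4 (adjusted p = 0.0136), and over all settings the adjusted p ran from 0.00132 to 0.301. As for Tnfrsf14, XBS 1 and XBS 2 were the highest libraries and XBS 4 the lowest XBS library. The ectodysplasin gene Eda and its receptor gene Edar had log2 fold changes of -0.24 ± 0.29 and 0.66 ± 0.48 (SE), with adjusted p of 0.742 and 0.558 by edgeR.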
